A study of Mus musculus with 6 samples.

Results

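The genes described here are 33 genes of cholesterol and fatty acid synthesis, the sterol regulatory element binding protein (SREBP) system that controls them, and sterol transport and export. They were listed by name from the textbook pathway. The rule used no measured value, but the list was drawn up with earlier results of these data known. All 33 were among the 26128 genes listed in the table. The RNA came from double negative T (DNT) cells, T cells that carry CD3 but lack CD4, CD8 and NK1.1. They were made in vitro from wild type CD4+CD25- T cells of adult C57BL/6 mice (spleen per the labels, spleen and lymph nodes per the methods of the study), by culture with mature dendritic cells of DBA/2 mice and IL-2, and then sorted. All 6 libraries came from sorted cells stimulated with anti-CD3/CD28 beads for 48 h. In 3 of them (control) no IL-33 was added, and in the other 3 IL-33, a cytokine of the IL-1 family, was present at 50 ng/ml. The comparison of IL-33 with control asks how the cytokine alters the transcriptome of activated DNT cells. DNT cells of this kind are a product of culture, and the labels do not say whether the libraries of a group came from separate mice or cultures, so the p-values measure only the spread between these libraries, which may be technical.

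Cells build cholesterol from acetyl-CoA through mevalonate, the isoprenoid intermediates and squalene, and they build fatty acids from the same precursor by chain assembly, desaturation and elongation. The transcription factors SREBP-1 and SREBP-2 turn these genes on when membrane sterols are low, after the escort protein SCAP has carried them from the endoplasmic reticulum to the Golgi. INSIG proteins hold SCAP back when sterols are plentiful, and liver X receptors answer an excess of oxysterols by raising the cholesterol exporters. Activated T cells are known to raise lipid synthesis as they grow and divide.

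Each library held between 20256342 and 22336050 counts, so that 3 counts corresponded to between 0.134 and 0.148 CPM, the count of a gene scaled to a fixed library total. All 10 T cell markers were detected, and their summed level was 3457 to 3570 CPM in control and 3503 to 3606 CPM with IL-33. Singly they were less even. At adjusted p under 0.05 (edgeR) 1 of the 10 rose, Cd3g, with a log2 fold change of 0.13. Another 4 fell: Cd5 by 0.43, Lat by 0.26, Lck by 0.17 and Cd2 by 0.16. Of all tested genes 13.6% rose and 13.9% fell. Of the genes the sort should remove, Cd4 was low, at 0.934 CPM in control and 0.373 CPM with IL-33 (log2 fold change -1.31, adjusted p = 0.0233, edgeR). These levels rest on few counts, 21, 22 and 16 in control and 11, 8 and 5 with IL-33. Cd8a was at 545 ± 13.6 CPM in control and 400 ± 9.15 CPM with IL-33 (SD, n = 3 each), although CD8+ cells had been sorted out. Cd8b1, which encodes the partner chain, went the other way, from 9.68 to 16.3 CPM (log2 fold change 0.75, adjusted p = 6.2e-08, edgeR), and Klrb1c, which encodes NK1.1, fell from 33.5 to 25.6 CPM (adjusted p = 7.1e-06). The 12 measured dendritic and myeloid markers summed to 99.9 to 104 CPM in control and 76.3 to 81.8 CPM with IL-33, and 6 of the 12, among them Lyz2, Flt3, Csf1r and Adgre1, were under 1 CPM. Itgax fell from 54.6 to 26.0 CPM and Cd74 from 5.66 to 3.78 CPM, whereas H2-Ab1 rose from 24.8 to 30.3 CPM (adjusted p = 0.00123, edgeR), so the markers of this list did not move as one. The 7 mast cell and basophil markers summed to 38.6 to 41.8 CPM and 27.0 to 31.6 CPM, and the 3 measured B cell markers to 4.79 to 5.70 CPM and 5.30 to 6.35 CPM. The part of these shifts in the values below was not tested.

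IL-33 was accompanied by a broad but mostly small increase in the transcripts of cholesterol synthesis. The transcripts of the stearoyl-CoA desaturases Scd1 and Scd2 rose as well, and Scd1 had the largest fold change of the 33 genes. The genes that assemble the fatty acid chain did not pass the test. All 33 genes passed the filter on low counts. With a Benjamini-Hochberg adjusted p under 0.05 in edgeR's quasi-likelihood test as the threshold, 19 of the 33 (57.6%) changed, against 27.5% of the 14671 genes tested. Of these, 18 rose, where 13.6% of all tested genes rose, and 1 fell, where 13.9% of all tested genes fell. The median log2 fold change of the 33 genes was 0.10, in a range from -0.16 to 0.95, against a median of -6.3e-04 over all tested genes. The study's second threshold, a change of at least 1.5-fold (0.585 on the log2 scale), was passed together with the first by only 1 of the 33, Scd1, against 4.87% of all tested genes in either direction and 2.47% in the upward direction. The 3 control and 3 IL-33 libraries did not overlap for 21 of the 33 genes (63.6%), and for 38.9% of all tested genes. In bulk RNA a change in the share of one type of cell and a change in RNA per cell cannot be told apart.

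**Figure D1:**
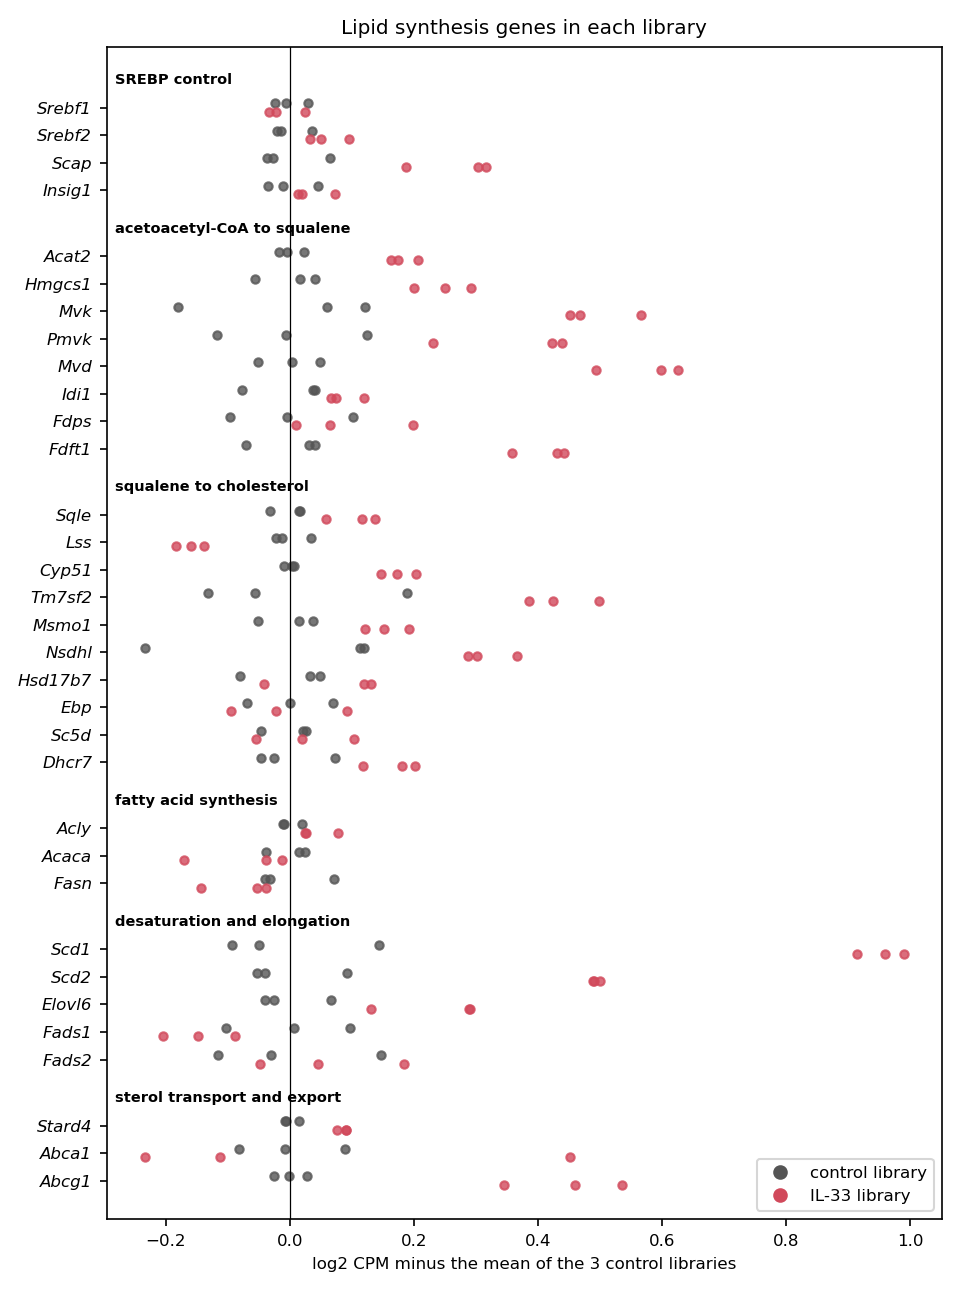
Level of each of the 33 genes in each library, as log2 CPM minus the mean of the 3 control libraries (horizontal axis), with 1 point for each library, control in grey and IL-33 in red, and genes grouped by role. All IL-33 points of Scd1 lie above 0.9, those of the genes from Mvk to Mvd lie to the right of their controls, and those of Lss lie to the left of its controls.

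The 33 genes together took 4851 to 4984 CPM in the control libraries and 5609 to 5661 CPM in the IL-33 libraries, which was 14.6% higher in the mean. The difference was unequal between roles. The mean sum of the 5 genes of desaturation and elongation was 39.7% higher with IL-33, at 1139 to 1260 CPM in control and 1645 to 1656 CPM with IL-33. Most of this was 1 gene, Scd2, whose mean was 410 CPM higher, where the mean sum of the 5 genes went from 1182 to 1650 CPM and that of all 33 from 4912 to 5631 CPM. The sum of the 8 genes from acetoacetyl-CoA to squalene was 22.9% higher, at 585 to 621 CPM and 734 to 748 CPM. The 10 genes from squalene to cholesterol differed by 5.49%, at 1021 to 1035 CPM against 1075 to 1093 CPM. The 3 genes of fatty acid synthesis differed by -1.13%, and their ranges overlapped, at 769 to 803 CPM in control and 757 to 791 CPM with IL-33.

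Among the 4 genes of SREBP control, only the escort protein gene passed the test, where 27.5% of all tested genes passed it. Scap, at 75.2 ± 2.95 CPM in control and 90.7 ± 4.40 CPM with IL-33 (SD, n = 3 each), rose by 0.27 on the log2 scale (adjusted p = 2.5e-07, edgeR), with every IL-33 library above every control. Srebf2, which encodes the SREBP that drives mainly the sterol genes, was at 653 CPM in control and 681 CPM with IL-33, a log2 fold change of 0.060 with a 95% interval of 0.0080 to 0.11 and an adjusted p of 0.0776 (edgeR), or 0.0457 without control replicate 3. Srebf1, which encodes SREBP-1, had a log2 fold change of -0.011 (95% interval -0.076 to 0.055). Insig1, which encodes the sterol-sensitive anchor of SCAP and is itself a target of the SREBPs, had a log2 fold change of 0.034 (95% interval -0.042 to 0.11). The intervals of these 3 genes exclude a change as large as that of Scap. They concern transcripts, and the cleavage that activates the SREBPs was not measured.

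Of the 18 enzymes of cholesterol synthesis, 12 rose, 1 fell and 5 did not pass the test. Of all tested genes, 13.6% rose and 13.9% fell. The 8 that lead from acetoacetyl-CoA to squalene held most of the larger changes, with 6 that rose and a median log2 fold change of 0.30. Mvd, the mevalonate diphosphate decarboxylase (ENSMUSG00000006517, chromosome 8, 122433601 to 122443422, minus strand, GRCm38), had the second largest change of the 33. Its levels were 61.9, 64.3 and 66.3 CPM in control and 99.0, 90.3 and 97.1 CPM with IL-33. The groups lay far apart relative to their spread, with a log2 fold change of 0.57 (SE 0.044, adjusted p = 4.6e-21, edgeR). This stayed just under the 1.5-fold threshold, which lies inside its 95% interval of 0.49 to 0.66, and it reached 0.60 without control replicate 3 and 0.61 without IL-33 replicate 2.

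Both kinases that act before Mvd in the pathway also rose. Mvk, the mevalonate kinase (ENSMUSG00000041939, chromosome 5, 114444269 to 114460591, plus strand), was at 20.3, 25.0 and 24.0 CPM in control and at 31.9, 34.1 and 31.5 CPM with IL-33. All IL-33 values lay above the controls, and the log2 fold change was 0.49 (SE 0.075, adjusted p = 5.2e-08, edgeR). Pmvk, the phosphomevalonate kinase that acts between Mvk and Mvd (ENSMUSG00000027952, chromosome 3, 89454541 to 89469013, plus strand), was at 34.5, 31.9 and 37.7 CPM in control and at 46.5, 47.0 and 40.6 CPM with IL-33. The lowest IL-33 library, replicate 3, stood closer to the highest control than to the other two, and the log2 fold change was 0.36 (SE 0.065, adjusted p = 3.5e-06, edgeR).

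Fdft1 encodes squalene synthase, which commits the isoprenoid farnesyl diphosphate to sterols (ENSMUSG00000021273, chromosome 14, 63145150 to 63179578, minus strand). It was at 80.2, 86.0 and 86.6 CPM in control and at 108, 114 and 114 CPM with IL-33. The groups did not overlap, and the log2 fold change was 0.41 (SE 0.042, adjusted p = 1.3e-14, edgeR). Of the 50-base words of its transcripts, 26.5% also occur in transcripts of other genes, mainly of Ctsb on the opposite strand, which had a log2 fold change of 0.085 here (adjusted p = 0.0326, edgeR). Whether counting used the strand is not given in the sources used here.

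Hmgcs1, the cytosolic HMG-CoA synthase, was the most abundant of the 8 per kilobase of exon in control, and it rose by 0.25 on the log2 scale, from 243 ± 8.48 to 288 ± 9.15 CPM (adjusted p = 4.0e-10, edgeR). Acat2, the acetoacetyl-CoA thiolase that opens the pathway, rose by 0.18, from 64.0 ± 0.917 to 72.5 ± 1.15 CPM (adjusted p = 0.00135, edgeR), and it shares 39.1% of its 50-base words with other genes, chiefly Acat3 and Tcp1. The isoprenoid enzymes between Mvd and Fdft1 did not pass the test. Idi1, the isopentenyl diphosphate isomerase, had a log2 fold change of 0.085 (95% interval -5.3e-04 to 0.17) and Fdps, the farnesyl diphosphate synthase, one of 0.090 (95% interval -0.15 to 0.33). Idi1 shares 25.3% of its words with other genes, mainly Gm13502 and Gm48574. Fdps was listed at only 9.54 CPM in control and shares 26.2% of its words with other genes, among them Gm3571, which rose by 0.37 on the log2 scale from 11.3 to 14.5 CPM, so its level is uncertain.

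SREBP and its partner NF-Y are known to act close to the start sites of these genes, so the windows of a few of them are printed from RefSeq (GRCm38.p6), each from 250 bases before to 50 bases after the start, 5′ to 3′ along the gene. Hmgcs1 is shown because it alone of the 25 genes with a window matched the exact form of the sterol regulatory element searched. Mvk and Mvd are shown because they had the largest changes before squalene, and Lss because it fell. Capitals mark every match to TCACNCCAC (the form of the sterol regulatory element searched) and to CCAAT (the NF-Y box). Both strands were read, so that CCAAT on the other strand appears as ATTGG. The windows lie at chr13:119690101-119690400 on the plus strand (Hmgcs1), chr5:114444019-114444318 on the plus strand (Mvk), chr8:122443373-122443672 on the minus strand (Mvd) and chr10:76531355-76531654 on the plus strand (Lss).
Hmgcs1: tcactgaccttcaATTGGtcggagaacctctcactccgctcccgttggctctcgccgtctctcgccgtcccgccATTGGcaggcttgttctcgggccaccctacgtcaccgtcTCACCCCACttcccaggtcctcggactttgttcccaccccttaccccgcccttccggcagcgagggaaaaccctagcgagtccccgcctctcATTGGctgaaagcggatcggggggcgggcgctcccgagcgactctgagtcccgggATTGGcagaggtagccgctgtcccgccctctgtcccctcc
Mvk: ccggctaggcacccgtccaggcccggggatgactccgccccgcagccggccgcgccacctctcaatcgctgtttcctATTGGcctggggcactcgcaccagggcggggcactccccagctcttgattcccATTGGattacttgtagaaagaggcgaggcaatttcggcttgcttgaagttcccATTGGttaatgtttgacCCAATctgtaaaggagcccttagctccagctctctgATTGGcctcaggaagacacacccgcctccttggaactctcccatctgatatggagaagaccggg
Mvd: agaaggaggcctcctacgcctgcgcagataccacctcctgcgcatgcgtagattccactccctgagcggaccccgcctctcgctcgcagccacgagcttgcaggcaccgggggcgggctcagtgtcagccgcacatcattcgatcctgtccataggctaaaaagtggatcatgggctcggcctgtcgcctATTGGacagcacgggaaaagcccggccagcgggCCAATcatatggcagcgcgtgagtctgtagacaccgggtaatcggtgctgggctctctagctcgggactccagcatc
Lss: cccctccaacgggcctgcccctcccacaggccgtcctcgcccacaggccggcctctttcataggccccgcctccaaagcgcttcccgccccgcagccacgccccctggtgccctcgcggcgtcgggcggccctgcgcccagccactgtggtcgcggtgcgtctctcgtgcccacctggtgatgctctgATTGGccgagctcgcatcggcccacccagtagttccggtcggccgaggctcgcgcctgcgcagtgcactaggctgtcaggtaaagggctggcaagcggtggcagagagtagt

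The Hmgcs1 window held 1 match to TCACNCCAC, beginning 137 bases before the start, and 4 to CCAAT. There were 5 CCAAT matches in the Mvk window, 2 in that of Mvd and 1 in that of Lss. Among the 25 genes with a window, 19 (76%) held CCAAT, against 42.6% of the 10068 tested genes with a window. Both shares count a gene if any of its windows held a match. Counted per window, 37.4% of all 32851 windows held it. Of the cholesterol enzymes with a window 14 of 15 held it, all but Acat2, whereas of the fatty acid enzymes 2 of 5 did. Among the genes with a window the match did not separate genes by response, since 9 of the 12 that rose and 9 of the 12 that did not pass the test held it. No window was available for Scd1, Scd2, Abcg1, Fdft1, Sqle, Stard4, Fdps and Fads1. The comparison therefore leaves out several of the genes with the largest increases, Scd1 among them. TCACNCCAC occurred in 1.24% of all windows and in 1.41% of the tested genes with a window. The E-box CACGTG was in 6 of the 25 genes (24%), 7.15% of all windows and 11.6% of those tested genes. The GC box GGGCGG was in 21 of the 25 (84%), 35.7% of all windows and 66.8% of those tested genes. The 3 shorter motifs were likewise read on both strands, and no motif contains another. A match describes the letters and not a bound site, and a missing match covers only the exact letters searched.

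**Figure D2:**
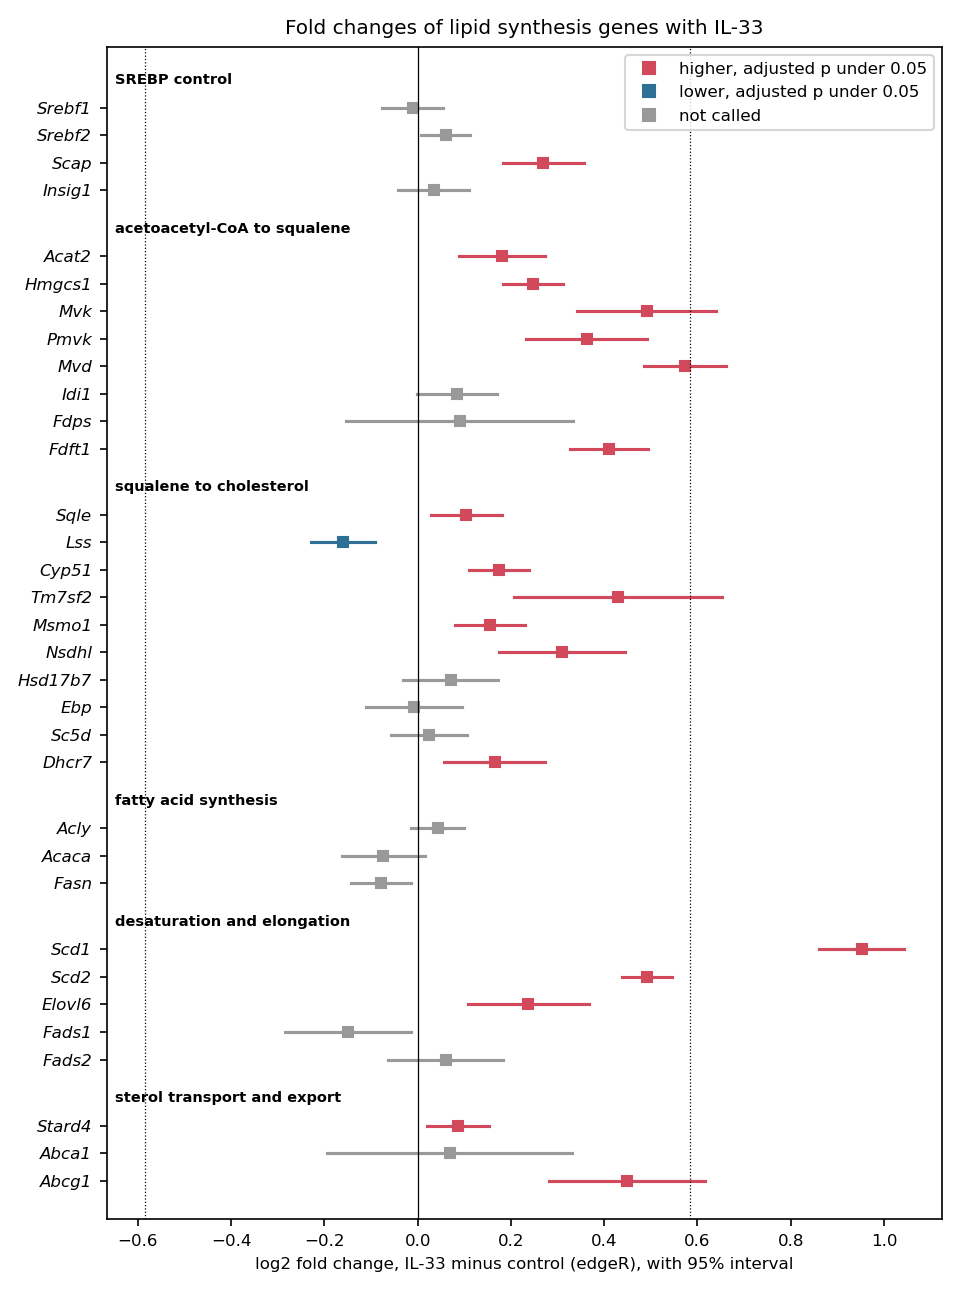
Log2 fold change of each of the 33 genes with IL-33 against control (horizontal axis, edgeR) with its 95% interval, coloured by the test and grouped by role, with dotted lines at the 1.5-fold threshold. Only Scd1, at 0.95, lies beyond the threshold, Mvd lies just inside it at 0.57, and Lss is the single gene that fell.

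From squalene onward the changes were smaller, with 6 of 10 enzymes that rose, 1 that fell and a median log2 fold change of 0.13. The shares over all tested genes were 13.6% that rose and 13.9% that fell. Tm7sf2, a sterol C14 reductase (ENSMUSG00000024799, chromosome 19, 6062821 to 6068373, minus strand), had the largest fitted change and a low level, at 11.7, 9.40 and 9.90 CPM in control and 14.6, 13.4 and 13.8 CPM with IL-33. The groups did not overlap, although replicate 1 of the control came close, and the log2 fold change was 0.43 (SE 0.11, adjusted p = 0.00162, edgeR). It shares 9.87% of its words with the overlapping gene Vps51, which had a log2 fold change of 0.11 (adjusted p = 0.292, edgeR). Nsdhl, which removes the carboxyl group left at C4, rose by 0.31 from 34.8 ± 4.65 to 43.1 ± 1.27 CPM (adjusted p = 2.1e-04, edgeR). Without control replicate 1, which stood below the other controls at 29.4 CPM, its log2 fold change was 0.20 (adjusted p = 0.0174).

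Cyp51, the lanosterol demethylase, rose by 0.17 (adjusted p = 5.0e-06, edgeR), Msmo1, the C4 methyl oxidase, by 0.15 (adjusted p = 7.2e-04) and Dhcr7, the 7-dehydrocholesterol reductase, by 0.17 (adjusted p = 0.0148). Sqle, the squalene epoxidase that is a rate-limiting step, rose by 0.10 (adjusted p = 0.032, edgeR). The call of Sqle was lost with DESeq2 (adjusted p = 0.0685) and when replicate 2 (0.145) or 3 (0.0521) of the control or replicate 2 (0.131) or 3 (0.0692) of the IL-33 group was left out. That of Dhcr7 was lost with DESeq2 (0.0535) and without control replicate 2 (0.0633), control replicate 3 (0.0799) or IL-33 replicate 1 (0.0717). Hsd17b7, the 3-keto reductase, Ebp, the Δ8-Δ7 isomerase, and Sc5d, the C5 desaturase, did not pass, with log2 fold changes of 0.070, -0.0074 and 0.024.

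Lss, the lanosterol synthase that closes the sterol rings between Sqle and Cyp51 (ENSMUSG00000033105, chromosome 10, 76531588 to 76557138, plus strand), was the exception. It was at 208, 200 and 201 CPM in control and at 182, 179 and 184 CPM with IL-33. Every IL-33 library lay below every control, and the log2 fold change was -0.16 (SE 0.035, adjusted p = 1.0e-04, edgeR).

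The 3 genes that make and join the carbon units of fatty acids did not pass the test. Acly, the ATP citrate lyase that supplies cytosolic acetyl-CoA, was at 388 CPM in control and 399 CPM with IL-33, a log2 fold change of 0.043 (95% interval -0.015 to 0.10). Acaca, the acetyl-CoA carboxylase, was at 79.2 and 75.3 CPM, a log2 fold change of -0.073 (95% interval -0.16 to 0.015). It shares 30.4% of its 50-base words with other genes, mainly Gm42553 and Gm5182. Fasn, the fatty acid synthase, was at 313 and 297 CPM, a log2 fold change of -0.078 with a 95% interval of -0.14 to -0.015 and an adjusted p of 0.0579 (edgeR). It passed the test, as lower, without control replicate 2 (adjusted p = 0.0383) or control replicate 3 (0.043), whereas leaving out replicate 1 of the control gave a log2 fold change of -0.042 (0.416) and leaving out replicate 2 of the IL-33 group gave -0.045 (0.417). None of these intervals reaches the increase of Mvk or of Scd2.

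The desaturases that place the first double bond in saturated fatty acids gave the largest change and the largest gain in level. Scd1 (ENSMUSG00000037071, chromosome 19, 44394455 to 44407879, minus strand) was at 64.0, 56.0 and 54.3 CPM in control and at 109, 113 and 115 CPM with IL-33. The lowest IL-33 library stood well above the highest control, and the log2 fold change was 0.95 (SE 0.046, 95% interval 0.86 to 1.04, adjusted p = 2.1e-30, edgeR). It ranked 201 of the 14671 tested genes by log2 fold change.

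Scd2, its neighbour on the chromosome (ENSMUSG00000025203, chromosome 19, 44293674 to 44306864, plus strand), was at 1075, 980 and 972 CPM in control and at 1425, 1417 and 1415 CPM with IL-33. The controls were spread more widely than the IL-33 libraries, which were nearly equal, and the groups did not overlap. The log2 fold change was 0.49 (SE 0.027, adjusted p = 4.9e-19, edgeR). Scd2 ranked 900 by log2 fold change, but its gain of 410 CPM ranked 10 among all tested genes.

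The fold change of Scd1 was the larger of the pair. The ratio of Scd1 to Scd2 in CPM was 0.0596, 0.0571 and 0.0559 in control and 0.0767, 0.0796 and 0.0814 with IL-33, a difference of 0.46 in log2 ratio (exact permutation test, two-sided p = 0.1, the smallest that 3 against 3 libraries can give). Per kilobase of exon, a scale on which levels of different genes can be compared, Scd1 went from 11.9 to 23.0 CPM per kb and Scd2 from 185 to 260 CPM per kb, so that Scd2 remained the main desaturase transcript. The pair shares few words, with 4.56% of the 50-base words of Scd1 and 3.97% of those of Scd2 found in other genes.

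**Figure D3:**
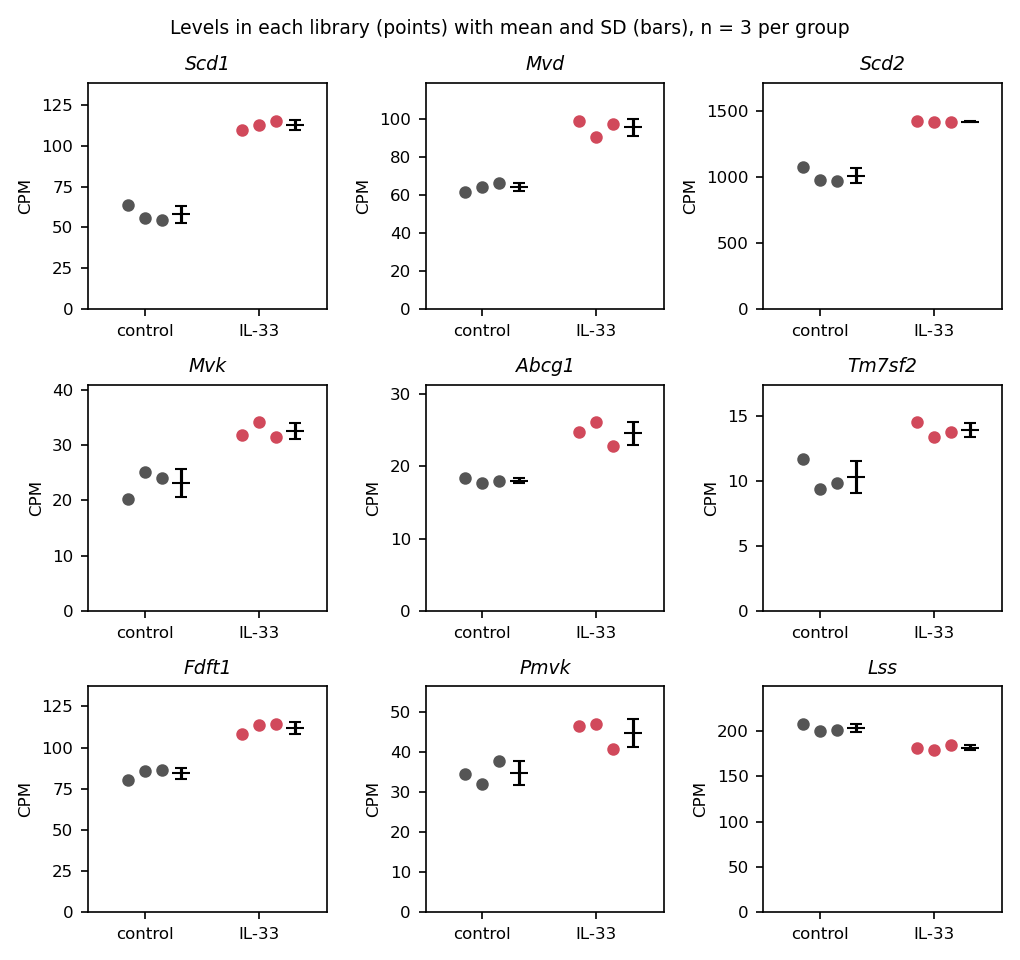
CPM (vertical axes, from 0) of the 8 genes with the largest changes past the test and of Lss, with 1 point for each library and the mean ± SD beside it, n = 3 for each group. In all 9 panels the points of the groups do not overlap, and IL-33 is the higher group in every panel except Lss.

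Elovl6, which lengthens palmitate before desaturation, rose by 0.24 on the log2 scale, from 33.2 to 39.2 CPM (adjusted p = 0.0029, edgeR). The desaturases of polyunsaturated fatty acids did not pass the test. Fads1, the Δ5 desaturase, had a log2 fold change of -0.15 (95% interval -0.28 to -0.014, adjusted p = 0.0938, edgeR, or 0.0455 without control replicate 2), and Fads2, the Δ6 desaturase, one of 0.060 (adjusted p = 0.521).

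Of the 3 genes of sterol transport and export, 2 rose, where 13.6% of all tested genes rose. With so few genes the count is a description. Abcg1, an exporter of cholesterol to lipoproteins and a target of the liver X receptors (ENSMUSG00000024030, chromosome 17, 31057675 to 31117988, plus strand), was at 18.3, 17.7 and 18.0 CPM in control and at 24.7, 26.1 and 22.9 CPM with IL-33. The controls lay close together and below all IL-33 libraries, and the log2 fold change was 0.45 (SE 0.085, adjusted p = 8.7e-06, edgeR). Abca1, the exporter of cholesterol to apolipoprotein A-I and likewise a target of those receptors, did not pass, with a log2 fold change of 0.069 (95% interval -0.19 to 0.33). It was at 9.85, 10.5 and 9.35 CPM in control and at 8.42, 9.16 and 13.5 CPM with IL-33. Of the IL-33 libraries, the first pair lay below every control while the last lay above every control. Without that last library, replicate 3, the log2 fold change was -0.17 (adjusted p = 0.424, edgeR). Stard4, a cytosolic sterol carrier, rose by 0.086 (adjusted p = 0.0453, edgeR), a call that was lost with DESeq2 (0.0545) and when any 1 of the 6 libraries was left out (0.0651 to 0.116).

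Among 33 further genes of the same pathways, 32 were tested and 12 changed (37.5%, against 27.5% of all tested genes), 10 of them upward and 2 downward, with a median log2 fold change of 0.065. By list, 3 of 10 tested genes of sterol synthesis and SREBP processing rose, 5 of 12 of fatty acid synthesis rose, and of 10 genes of sterol transport and liver X receptor response 2 rose and 2 fell. Over all tested genes 13.6% rose and 13.9% fell, and with lists this small the counts are a description. Me1, the cytosolic malic enzyme that supplies NADPH for lipid synthesis, was the one past both thresholds. Without IL-33 replicate 2 or 3 a further gene passed them, and without control replicate 3 only 7 of the list changed. Me1 was at 12.1, 11.3 and 10.8 CPM in control and at 25.5, 21.4 and 22.6 CPM with IL-33. The groups were widely separated, and the log2 fold change was 1.03 (SE 0.096, adjusted p = 2.7e-16, edgeR). Named after their values were seen, Npc2, a lysosomal cholesterol carrier, rose by 0.26 from 812 to 974 CPM (adjusted p = 6.2e-16, edgeR), and Mylip, a ubiquitin ligase induced by the liver X receptors, fell by 0.28 (adjusted p = 6.7e-04). Npc2 and Mylip were the extremes of the 10 genes of sterol transport and liver X receptor response, whose median log2 fold change was -0.030.

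**Figure D4:**
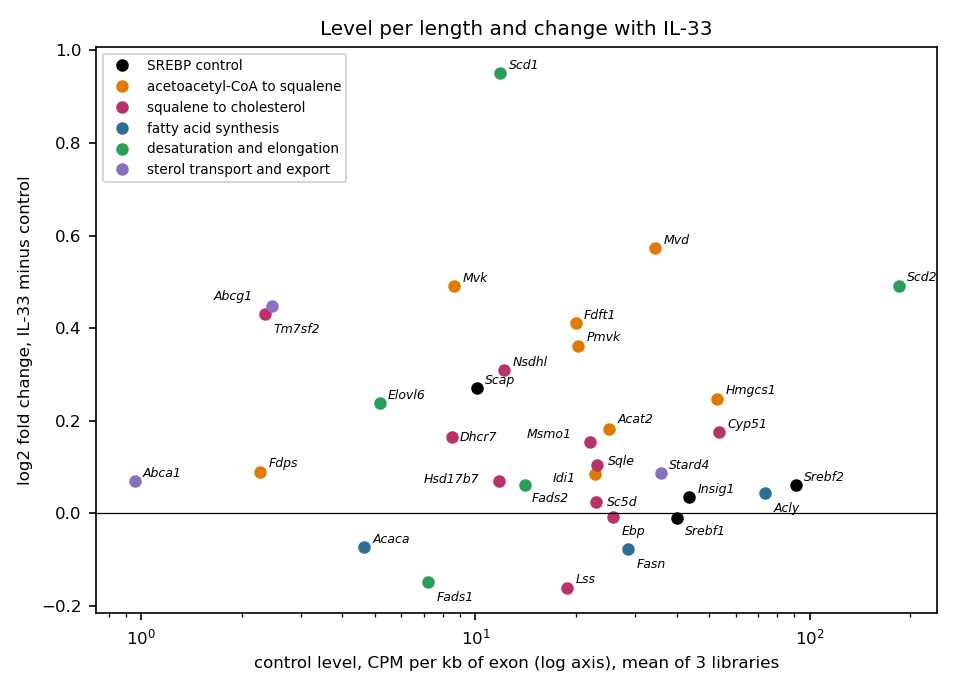
Control level of each of the 33 genes in CPM per kb of exon (horizontal log axis, mean of 3 libraries) against its log2 fold change with IL-33 (vertical axis), coloured by role. Scd2 is the most abundant at 185 CPM per kb, and Scd1, with the largest fold change, is at 11.9 CPM per kb.

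By control level per kilobase of exon, Scd2 was first at 185 ± 10.5 CPM per kb, followed by Srebf2 at 90.9 ± 1.94 and Acly at 73.5 ± 0.898. Cyp51 at 53.7 ± 0.311 and Hmgcs1 at 52.9 ± 1.85 CPM per kb came next and did not differ beyond their spread. At the low end, Tm7sf2 at 2.35 ± 0.279 CPM per kb did not differ beyond its own spread from either neighbour, Abcg1 at 2.47 ± 0.0454 and Fdps at 2.27 ± 0.157, and Abca1 was last at 0.956 ± 0.0570. Genes that rose were found at both ends of this order, from Scd2 to Tm7sf2.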

How the data were processed

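RNA sequencing libraries of 3 control and 3 IL-33 treated DNT cell samples were analysed. The authors deposited one table of whole-number counts per Ensembl gene, without normalization, together with a column of means over libraries that was not used here. The submitters' processing notes name Bowtie 0.12.2 and the mm8 build, with no counting program or strand setting stated. The labels name a TruSeq kit, whereas the study's methods name NEBNext Ultra with sequencing on an Illumina NovaSeq.

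Symbols were found for 26072 of 26128 identifiers, and positions and exon lengths come from GENCODE (GRCm38). Genes with low counts were removed (filterByExpr, minimum count 10, minimum total 15), which left 14671 genes and removed 0.11% of counts. Groups were compared with edgeR 4.0.16 (R 4.3.3), with TMM factors and a robust quasi-likelihood fit, and p-values of all tested genes were adjusted together by the Benjamini-Hochberg method, at a threshold of 0.05. CPM were taken over the TMM-scaled library. Standard errors and 95% intervals of fold changes were derived from edgeR's F statistic. The ratio of Scd1 to Scd2 was compared with a two-sided exact permutation test. The procedure was tested on simulated data. Alternatives were DESeq2 1.42.0, limma-voom (limma 3.58.1), DESeq2 size factors within edgeR, no filter, a stricter filter, a replicate block and leaving out each library. The biological coefficient of variation was 0.0468. Replicates differed by more than sampling noise, so none was treated as a repeat deposit.

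The members and lists were chosen with earlier results of these data known. All 33 members were named by role. Values in every library were given for members past both thresholds and for the 8 with the largest absolute log2 fold change among those past the adjusted p threshold, and also for Lss and Abca1, which were added after their values were seen. Other pathway genes were named where they passed both thresholds (Me1), and Npc2 and Mylip were added after their values were seen. Shared 50-base words were counted between the GENCODE transcripts of members and of all other genes. Promoter windows were available for 25 of the 33 genes.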

Additional observations from a re-analysis of the deposited data

How the results depend on the processing

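Across the 12 alternatives, 16 of the 33 genes passed the test in every fit, 11 in none and 6 in some, and 28 kept 1 sign throughout. The genes that passed in some were Srebf2, Sqle, Dhcr7, Fasn, Fads1 and Stard4. The number of the 33 that changed was 19, and 16 with DESeq2, which dropped Sqle, Dhcr7 and Stard4. The number that fell was 1, and 1 to 3 when a library was left out: 3 without control replicate 2, where Fasn and Fads1 joined Lss, and 2 without control replicate 3, where Fasn joined it. The number past both thresholds was 1, and 1 to 2 when a library was left out, with Mvd added without control replicate 3 or IL-33 replicate 2. The median log2 fold change was 0.10, and 0.11 to 0.15 when a library was left out. The count of changed genes among the 32 other pathway genes was 12, with 7 in DESeq2 and 7 to 11 when a library was left out, the lowest without control replicate 3. Those past both thresholds numbered 1, and 1 to 2, with 2 without IL-33 replicate 2 or 3. Without the filter on low counts, Sqle (adjusted p = 0.0527) and Stard4 (0.0862) also missed the threshold. Scd1 and Me1 passed both thresholds in all 12 alternatives.

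The sources do not say whether the replicate numbers pair the samples, and the counts do not settle it. Deviations of same-numbered libraries from their group means correlated across genes at only 0.0116, 0.00317 and 0.0107. Each library nevertheless correlated best with the one of its own number. A replicate block left 19 of the 33 genes changed, and 3798 against 4036 of all tested genes. Depth limits the genes near 10 CPM, such as Fdps and Abca1, more than the others.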
